A study of Mus musculus with 14 samples.

Results

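The extracellular matrix and fibroblast genes described here are 44 listed genes that encode collagens, proteoglycans, basement membrane and elastic fibre proteins, matricellular proteins, matrix proteases with their inhibitors, and mural cell markers. They were chosen by symbol, not by their measured values, from the gene table of the array. Of the 44 genes, 42 had a probe among the 13661 genes named on the array, while Col6a3 and Fbn1 had none. Where a gene had several probes, the probe with a value in most samples stood for it, and among probes equal in this the one with the highest mean value.

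The matrix outside cells is built from fibrillar collagens, which give tensile strength, from network-forming collagens and laminins in basement membranes, and from elastic fibres in which fibulins place elastin on a microfibril scaffold and lysyl oxidases cross-link it. Small leucine-rich proteoglycans bind collagen fibrils and set their width, and matricellular proteins such as tenascin C and thrombospondins signal to cells rather than carry load. In brain, most fibrillar collagen comes from fibroblasts of the meninges and vessels. Astrocytes supply laminins, tenascin C, thrombospondins and, at their endfeet, part of the basement membrane of vessels.

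RNA was measured on arrays of spotted mouse oligonucleotides in cultured astrocytes of newborn mice, labelled as cortical, which the culture protocol in the labels prepared from minced whole brain and passaged after the cells became confluent. The groups were wild-type cultures (samples numbered 3, 4 and 6), cultures null for connexin43 (Cx43, the gap junction protein encoded by Gja1; samples 1 to 4) and wild-type cultures transfected with an siRNA, a short RNA that directs the breakdown of its matching messenger, here that of Cx43 (samples 1 to 4), read after 36 h per the design text and 48 h per the protein protocol. The labels name neither the allele nor the mouse strain, and a transfection control was not analysed here. Each value is a log2 ratio of a spot's signal to the median signal of its print block, so 0 is the block median, and levels of different probes were not compared. Changes are differences of log2 values with a standard error (SE), and adjusted p-values are from limma with Benjamini-Hochberg adjustment over all 16307 probes tested, called below 0.05.

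The 11 samples used here had values for 53.1% to 79.8% of the 33600 probes, and their columns correlated with the mean of the others at r from 0.894 to 0.948. Wild-type replicates 1 and 2 correlated with that mean at only 0.37 and 0.38, and wild-type replicate 5 held a narrow range of values (SD 0.476), so these 3 columns were kept out of the main comparison. Replicates 1 and 2 of the null and siRNA groups differed from replicates 3 and 4 across the array, and a term for this difference was fitted together with the dye. Samples with consecutive numbers carry opposite dyes and may share an array, which the sources used here do not say; they read nearly alike (r 0.923 to 0.990 in the null and siRNA groups). The labels link no sample to a culture, so the error behind each p-value is the spread among samples and could be technical.

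Gja1, the target of both manipulations, read 6.08, 7.53 and 4.82 in wild-type replicates 3, 4 and 6, then -1.17, -1.06, 2.82 and 3.03 in null replicates 1 to 4, and 1.93, 2.14, 5.47 and 5.70 in siRNA replicates 1 to 4. All null samples lay below all wild-type samples, whereas the siRNA group overlapped wild type. Null minus wild type was -3.31 ± 0.58 on the log2 scale for Gja1 (SE; limma adjusted p = 0.0478), a call lost with array pairs as a random block (0.276). The siRNA difference from wild type was -0.41 ± 0.58 (limma adjusted p = 0.733), so a lower Gja1 level after siRNA was not detectable in these columns.

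Among the 26 members that could be tested, each by 1 probe, 2 fell in null against wild type and 0 rose, where 0.0859% of all probes fell and 0.276% rose (7 members, and 15.6% of all probes, had an unadjusted limma p under 0.05). Against wild type, siRNA samples also had 2 members that fell and 0 that rose, where 2.12% of all probes fell and 5.4% rose (5 members, and 23.6% of all probes, at an unadjusted limma p under 0.05). Between null and siRNA, 3 members were higher and 2 lower in null, where 3.81% of all probes were higher and 2.6% lower. The median log2 change of the members was -0.26 in null against wild type, where that of all probes was 0.20; it was -0.48 in siRNA against wild type, where that of all probes was 0.13; and it was -0.03 between null and siRNA, where that of all probes was 0.07. Of the members, 22 of 26 had a negative change in siRNA, where 7109 of 16307 probes did. In null the counts were 16 of 26 members and 6105 of 16307 probes. Without wild-type replicate 3, 18 of 26 members were negative in siRNA and 13 in null, where 4993 and 4032 of 15621 probes were. These comparisons share samples, so they are given side by side and not as support for one another. The 16 other members with a probe lacked values in too many samples for this test and are given by value.

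**Figure D1:**
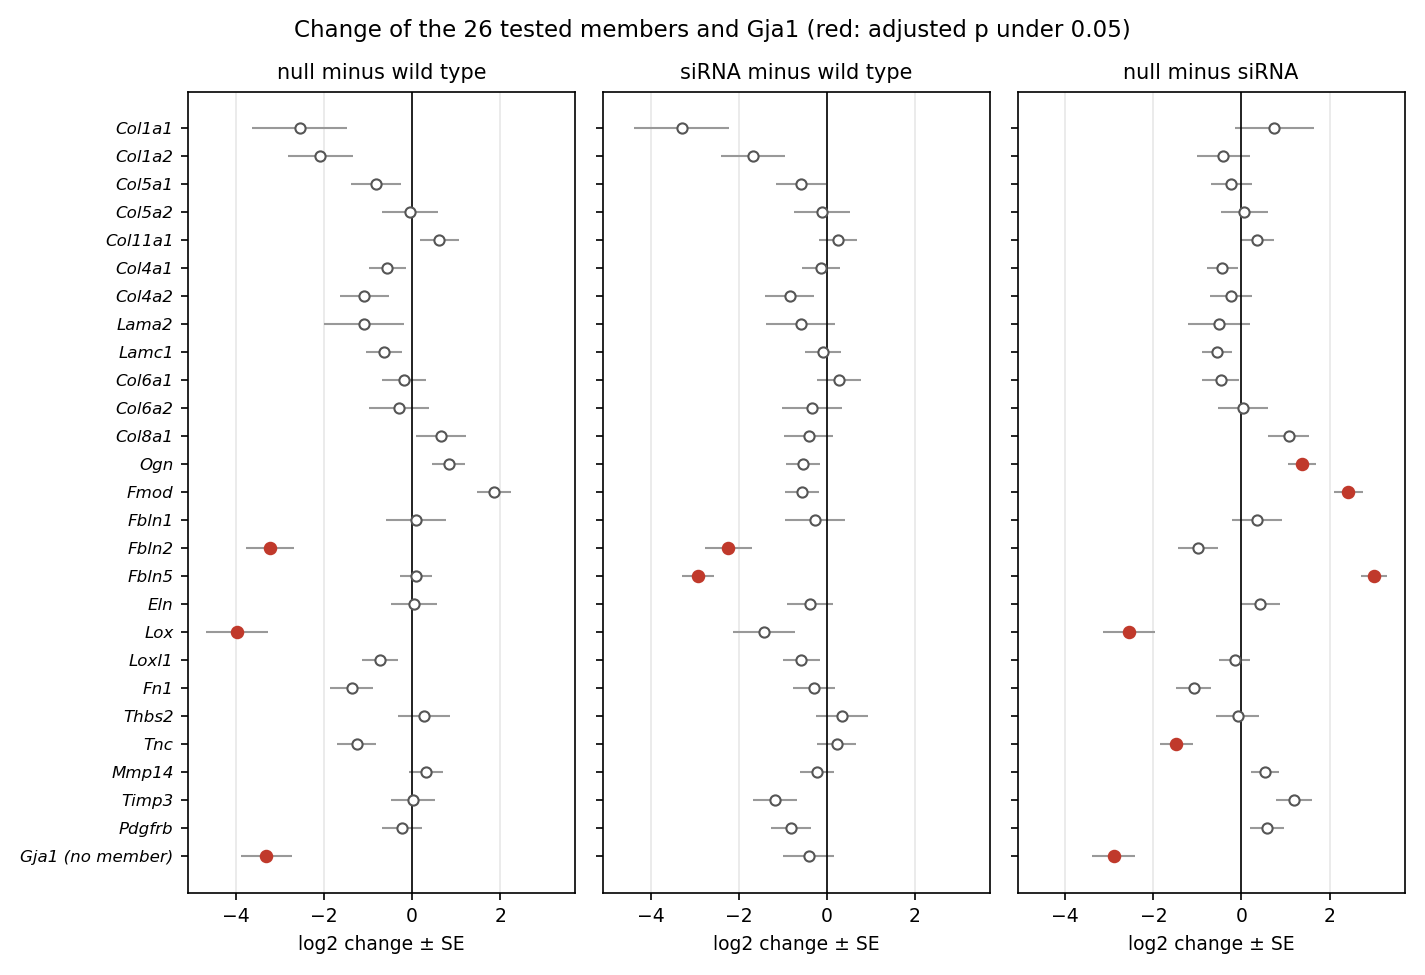
Log2 change with its standard error (horizontal axis) for the 26 tested members and Gja1 (vertical axis) in each of the 3 comparisons. Red points passed the adjusted p threshold; Fbln5 stands at 3.01 between null and siRNA and at 0.08 between null and wild type.

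Fibulin 5 (Fbln5), a secreted glycoprotein that tethers elastic fibres to cells through integrins, was low in every siRNA sample and close in null and wild type. Its log2 values were 3.74, 3.69 and 4.26 in wild type, 3.76, 3.92, 3.95 and 4.06 in null, while siRNA samples read 0.55, 1.44, 0.65 and 1.01. No siRNA sample came within the range of the other groups, whose values lay among each other. The change in siRNA against wild type was -2.92 ± 0.36 on the log2 scale (SE; 7.58-fold, limma adjusted p = 0.00143), and null exceeded siRNA by 3.01 ± 0.30 (8.04-fold, limma adjusted p = 0.000385). Null and wild type differed by 0.08 ± 0.36 (limma adjusted p = 0.941). Both siRNA calls held in each of the 11 fits that left out a sample, with changes from -3.08 to -2.80 against wild type. They also held with possible array pairs as a random block, at limma adjusted p = 0.0157 and 0.00631. Fbln5 did not depend on the replicate number either (-0.00 ± 0.30 for replicates 1 and 2 against 3 and 4).

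Fibulin 2 (Fbln2), which binds basement membranes and microfibrils, was below wild type in both manipulated groups. It read 2.23, 1.29 and 0.90 in wild type, -2.17, -2.58, -0.91 and -1.39 in null, while siRNA samples read -0.34, -0.31, -1.35 and -1.11. All 3 wild-type samples lay above all 8 others, while null and siRNA overlapped. The Fbln2 signal in null replicate 2 was 29 scanner units, near the dim end of that column (1st percentile 15). Fbln2 fell in both, with a log2 change of -3.22 ± 0.54 in null (SE; 9.34-fold, limma adjusted p = 0.0475) and -2.24 ± 0.54 in siRNA (4.72-fold, limma adjusted p = 0.0294). The null call was lost in 9 of 11 fits that left out a sample (all but those without wild-type replicate 6 or siRNA replicate 2; limma adjusted p 0.0289 to 0.146), and the siRNA call without siRNA replicate 3 or 4 or wild-type replicate 3 or 4 (up to 0.155). With array pairs as a random block the limma adjusted p-values were 0.276 and 0.113, and with wild-type replicates 1 and 2 added after a shift of their grid rows, where they read -1.83 and -1.09, the changes were -1.95 and -0.97 (limma adjusted p = 0.187 and 0.411).

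Lysyl oxidase (Lox), the enzyme that cross-links collagen and elastin, had its lowest values in null samples. Wild-type samples read 5.17, 4.05 and 5.14, null samples -2.78, -2.78, 2.17 and 0.90, and siRNA samples 1.18, 1.18, 2.02 and 3.36. Wild-type replicates 3, 4 and 6 lay above all null and siRNA samples. The null group was split, with replicates 1 and 2 more than 3 log2 units below replicates 3 and 4. Wild-type replicates 1 and 2, after the shift of their grid rows, read 0.27 and 0.10, below all siRNA samples. With them added, the null call against wild type was lost. The Lox signals in null replicates 1 and 2 were 51 and 18 scanner units, near the floor of those columns, whose lowest signals were 34 and 14 and whose 1st percentiles were 38 and 15, so the size of the fall there is not known. Lox fell in null, with a fitted log2 change of -3.98 ± 0.70 against wild type (SE; limma adjusted p = 0.0478) and of -2.56 ± 0.59 against siRNA (limma adjusted p = 0.0275), both of which rest in part on these dim values. In replicates 3 and above, which leave them out, Lox changed by -3.29 ± 0.59 in null against wild type (limma adjusted p = 0.00588), and null minus siRNA was -1.15 ± 0.64 and did not pass (0.261). The siRNA change from wild type, -1.42 ± 0.70, did not pass (limma adjusted p = 0.252). With the replicate number as a block the null change against wild type was -3.78 ± 0.80 (limma adjusted p = 0.0556), and with array pairs as a random block both null calls were lost (0.276 and 0.139). The call against wild type held in 2 of 11 fits that left out a sample, those without siRNA replicate 2 or 3 (limma adjusted p 0.044 to 0.179). The call against siRNA held in 5, those without null replicate 3, siRNA replicate 3 or a wild-type sample (0.0112 to 0.0865).

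Of the other elastic fibre genes, elastin itself (Eln), fibulin 1 (Fbln1) and Loxl1, a lysyl oxidase relative, passed in none of the 3 comparisons. Their changes lay between -0.73 (Loxl1) and 0.09 (Fbln1) in null against wild type and between -0.58 (Loxl1) and -0.26 (Fbln1) in siRNA against wild type. The elastin signals were 109 to 569 scanner units.

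**Figure D2:**
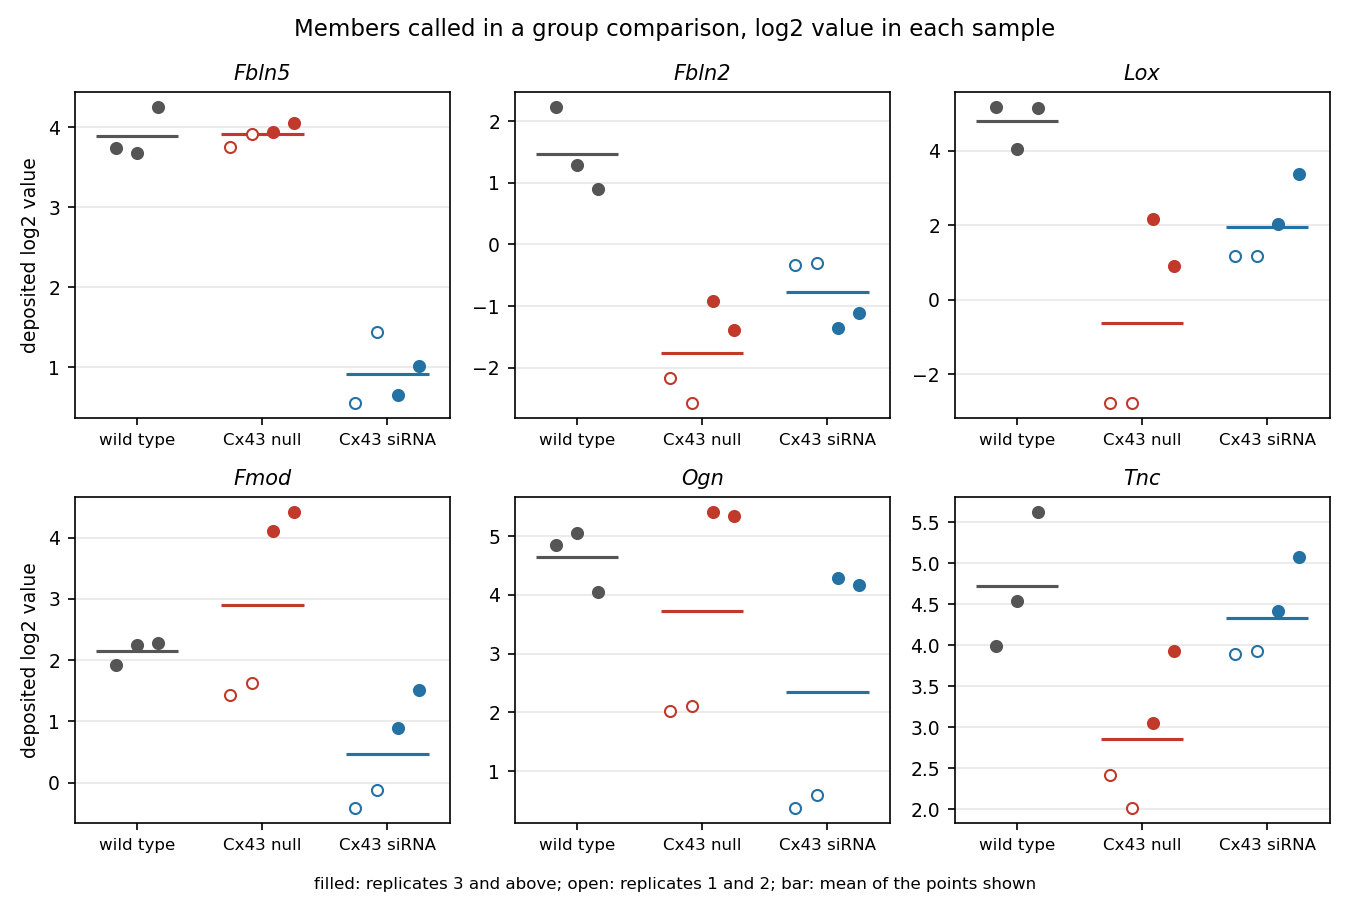
Log2 value (vertical axis) of the 6 members called in any of the 3 comparisons, in each sample of the wild-type, null and siRNA groups (horizontal axis); filled points are replicates 3 and above, open points replicates 1 and 2, bars the mean of the points. Fbln5 separates the siRNA group from both others, and Ogn differs more by replicate number than by group. Fbln2 and Lox separate the wild-type replicates shown (3, 4 and 6) from both others, which the moved wild-type replicates 1 and 2 did not share.

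Fibromodulin (Fmod) and osteoglycin (Ogn), small leucine-rich proteoglycans that bind collagen fibrils, were higher in null than in siRNA cultures. Fmod read 1.92, 2.24 and 2.28 in wild type, 1.44, 1.62, 4.11 and 4.42 in null, while siRNA samples read -0.42, -0.12, 0.90 and 1.52. Only null replicates 3 and 4 exceeded wild type, all siRNA samples lay below wild type, and siRNA replicate 4 at 1.52 lay above null replicate 1. The difference between null and siRNA was 2.43 ± 0.33 (SE; 5.37-fold, limma adjusted p = 0.00235) and was called in all 11 fits that left out a sample and with array pairs as a random block (0.0191). It was lost without the replicate term (0.255), with all 14 samples (0.475), and with the moved wild-type columns and the pairs together (0.0608). Against wild type Fmod was 1.86 ± 0.39 in null (limma adjusted p = 0.0633) and -0.57 ± 0.39 in siRNA (0.429).

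Ogn read 4.85, 5.05 and 4.04 in wild type, 2.02, 2.11, 5.41 and 5.34 in null, while siRNA samples read 0.37, 0.60, 4.28 and 4.16. Within each pair of replicate numbers the null samples lay above the siRNA samples, while the groups as a whole overlapped. The difference was 1.37 ± 0.32 (SE; 2.58-fold, limma adjusted p = 0.0279). It was lost when any null or siRNA sample was left out (up to 0.0892), with array pairs as a random block (0.164) and with the moved wild-type columns (0.185).

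Decorin (Dcn), biglycan (Bgn) and lumican (Lum), the other proteoglycans of this family, had no value in any of the null and siRNA replicates 1 and 2. In replicates 3 and above, Dcn read 4.49, 3.11 and -0.35 in wild type, 0.90 and 0.78 in null, while siRNA samples read -1.34 and -2.27. Bgn read 5.08, 5.68 and 5.29 in wild type, 4.34 and 4.91 in null, while siRNA samples read 3.70 and 3.98. Lum was near the lower end of the scanner range, at signals of 28 to 78, and read -0.60 and -3.48 in wild-type replicates 3 and 6, -0.67 in null replicate 3, and -2.41 and -3.95 in siRNA replicates 3 and 4. The siRNA samples were the lowest of the 3 groups for Dcn and Bgn, and wild-type replicate 6 stood far below the other wild-type samples for Dcn.

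The RefSeq promoter table (GRCm38.p6) held 31 of the 44 members, in 36 windows. The 250 bases before the start are shown, at the start farthest upstream, for the 5 members called in any of the 3 comparisons that were matched: Fbln5 and Fbln2, which fell in siRNA samples, Fmod and Ogn, which were higher in null than in siRNA, and tenascin C (Tnc), which was lower in null than in siRNA. Capitals mark matches, on either strand, to the TATA motif TATAAA, the CAAT motif CCAAT, the Sp1-type motif GGGCGG, the Smad-type motif CAGAC or the CArG box, so a match on the other strand shows as the reverse complement.
Fbln5, chr12:101819120-101819369, minus strand: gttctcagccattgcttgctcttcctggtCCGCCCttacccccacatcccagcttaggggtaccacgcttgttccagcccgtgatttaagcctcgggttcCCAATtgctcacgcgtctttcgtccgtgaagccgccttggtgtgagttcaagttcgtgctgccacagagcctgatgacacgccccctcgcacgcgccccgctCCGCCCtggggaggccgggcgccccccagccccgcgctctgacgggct
Fbln2, chr6:91212514-91212763, plus strand: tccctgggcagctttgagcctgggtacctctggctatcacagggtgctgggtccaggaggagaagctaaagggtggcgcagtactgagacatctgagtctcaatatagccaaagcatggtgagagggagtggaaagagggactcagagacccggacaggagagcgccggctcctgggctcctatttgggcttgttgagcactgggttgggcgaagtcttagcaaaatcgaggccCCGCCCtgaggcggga
Fmod, chr1:134037004-134037253, plus strand: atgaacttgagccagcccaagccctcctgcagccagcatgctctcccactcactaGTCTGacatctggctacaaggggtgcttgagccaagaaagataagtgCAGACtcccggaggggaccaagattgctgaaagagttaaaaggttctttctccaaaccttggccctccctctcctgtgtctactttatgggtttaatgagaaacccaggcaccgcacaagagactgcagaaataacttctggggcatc
Ogn, chr13:49607765-49608014, plus strand: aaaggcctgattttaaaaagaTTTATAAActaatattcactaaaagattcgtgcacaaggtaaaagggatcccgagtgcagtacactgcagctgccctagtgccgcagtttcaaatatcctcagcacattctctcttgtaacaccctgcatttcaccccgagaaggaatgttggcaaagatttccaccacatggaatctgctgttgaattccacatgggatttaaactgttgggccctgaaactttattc
Tnc, chr4:64047016-64047265, minus strand: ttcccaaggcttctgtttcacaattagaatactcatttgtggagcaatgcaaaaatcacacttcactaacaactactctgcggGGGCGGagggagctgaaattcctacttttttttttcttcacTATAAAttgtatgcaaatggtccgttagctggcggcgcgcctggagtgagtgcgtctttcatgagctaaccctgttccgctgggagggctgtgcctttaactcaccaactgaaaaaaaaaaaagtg
The Fbln5 window held GGGCGG at 48 and 221 bases and CCAAT at 150 bases before the start, and a second listed start of Fbln5 had CAGAC at 15 and 199 bases before it. Fbln2 held GGGCGG 16 bases before its start, Fmod held CAGAC at 148 and 195 bases, and Ogn held overlapping TATAAA matches on both strands from 229 to 222 bases before its start. Tnc held GGGCGG at 167 and TATAAA at 126 bases before this start, and a second listed start had these at 246 and 205 bases and CAGAC at 70. Of all 32851 windows, 12.4% held the TATA motif, 33.8% the CAAT motif, 32.7% the Sp1-type motif, 42.2% the Smad-type motif and 1.47% a CArG box. Of the 36 member windows, 7 held the TATA motif, 12 the CAAT motif, 22 the Sp1-type motif, 20 the Smad-type motif and 1 a CArG box. These are matches of letters and not binding sites.

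The chains of type I collagen, a fibrillar collagen, had a wide spread of values within wild type. The alpha 1 chain of type I collagen (Col1a1) read 2.99, 1.41 and -0.70 in wild type, -3.80, -3.13, 0.46 and -0.78 in null, while siRNA samples read -2.63, -1.50, -3.26 and -2.84. Its partner chain Col1a2 read 4.40, 4.43 and 1.46 in wild type, -0.87, -1.10, 1.95 and 1.67 in null, while siRNA samples read 0.04, 0.43, 1.27 and 1.53. For both genes wild-type replicate 6 was the lowest of these wild-type samples and overlapped null. For Col1a1 all siRNA samples lay below these wild-type samples, but the moved wild-type replicate 2 read -1.76, within the siRNA range. Over all 11 samples neither gene passed. Col1a1 changed by -3.29 ± 1.08 in siRNA (SE; limma adjusted p = 0.0877) and -2.55 ± 1.08 in null (0.279), and Col1a2 by -1.67 ± 0.73 in siRNA (0.191) and -2.08 ± 0.73 in null (0.193). With the replicate number as a block, Col1a1 fell in siRNA (-4.18 ± 1.00, limma adjusted p = 0.0294) and Col1a2 fell in both groups, with changes of -2.60 ± 0.51 in siRNA (0.0132) and -3.01 ± 0.51 in null (0.0224). Without wild-type replicate 6 the same changes passed (limma adjusted p = 0.0398 for Col1a1 in siRNA, 0.0124 and 0.0229 for Col1a2), and Col1a1 in siRNA also passed without null replicate 1 or siRNA replicate 2 (lowest 0.0324).

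Col3a1, the fibrillar collagen of distensible tissue, had no value in null and siRNA replicates 1 and 2. In replicates 3 and above it read 5.39, 3.23 and 1.63 in wild type, 2.03 and -0.33 in null, while siRNA samples read -2.03 and -0.01. Both siRNA samples lay below these wild-type samples, while null overlapped them. The moved wild-type replicates 1 and 2 read -3.16 and -3.27, below both siRNA samples. Col5a1, Col5a2 and Col11a1, chains of the minor fibrillar collagens that start fibrils, passed in no group comparison, with changes between -0.82 (Col5a1) and 0.62 (Col11a1) in null and between -0.59 (Col5a1) and 0.25 (Col11a1) in siRNA. A second Col11a1 probe, measured in all 11 samples, gave 2.64 in siRNA against wild type (limma adjusted p = 0.0311) and -2.53 between null and siRNA (0.0207), so the Col11a1 probes disagreed. The Col5a1 probes disagreed as well: of 2 others measured in all 11 samples, 1 gave 1.57 in null and 1.08 in siRNA, and 1 gave -1.14 and -0.34, with none of them called. No direction is given for these genes.

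A fit of replicates 3 and above alone (7 samples) could test 33 members, among them Col3a1, Dcn, Bgn, Thbs1, Timp2, Mmp2, Tagln and Lamb1. It has 2 null and 2 siRNA samples, each of which may be 1 array, and leaving out samples was not tried in it. In siRNA against wild type 7 members were lower and 1 higher, where 3.22% of 19163 probes were lower and 6.01% higher. Col1a1 changed by -4.50 ± 0.69 (SE; limma adjusted p = 0.000826); its signal in siRNA replicate 3 was 30 scanner units, the 1st percentile of that column, so the size of this change is not known. Col3a1 changed by -4.65 ± 0.85 (0.00302) and Dcn by -4.48 ± 0.84 (0.00355). Mmp2, a gelatinase that cleaves collagen IV and denatured collagen, changed by -2.50 ± 0.62 (0.0185), and Fbln5, Fbln2 and Lox made up the rest. Bgn did not pass (-1.44 ± 0.47, limma adjusted p = 0.0665). In null against wild type 2 members were lower (Fbln2 and Lox) and 1 higher (Fmod), where 1.15% of probes were lower and 3.43% higher. Between null and siRNA 5 members were higher in null (Col1a1, Col8a1, Fbln5, Fmod, Timp2) and 2 lower (Fn1, Thbs1), where 6.62% of probes were higher and 3.26% lower.

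**Figure D3:**
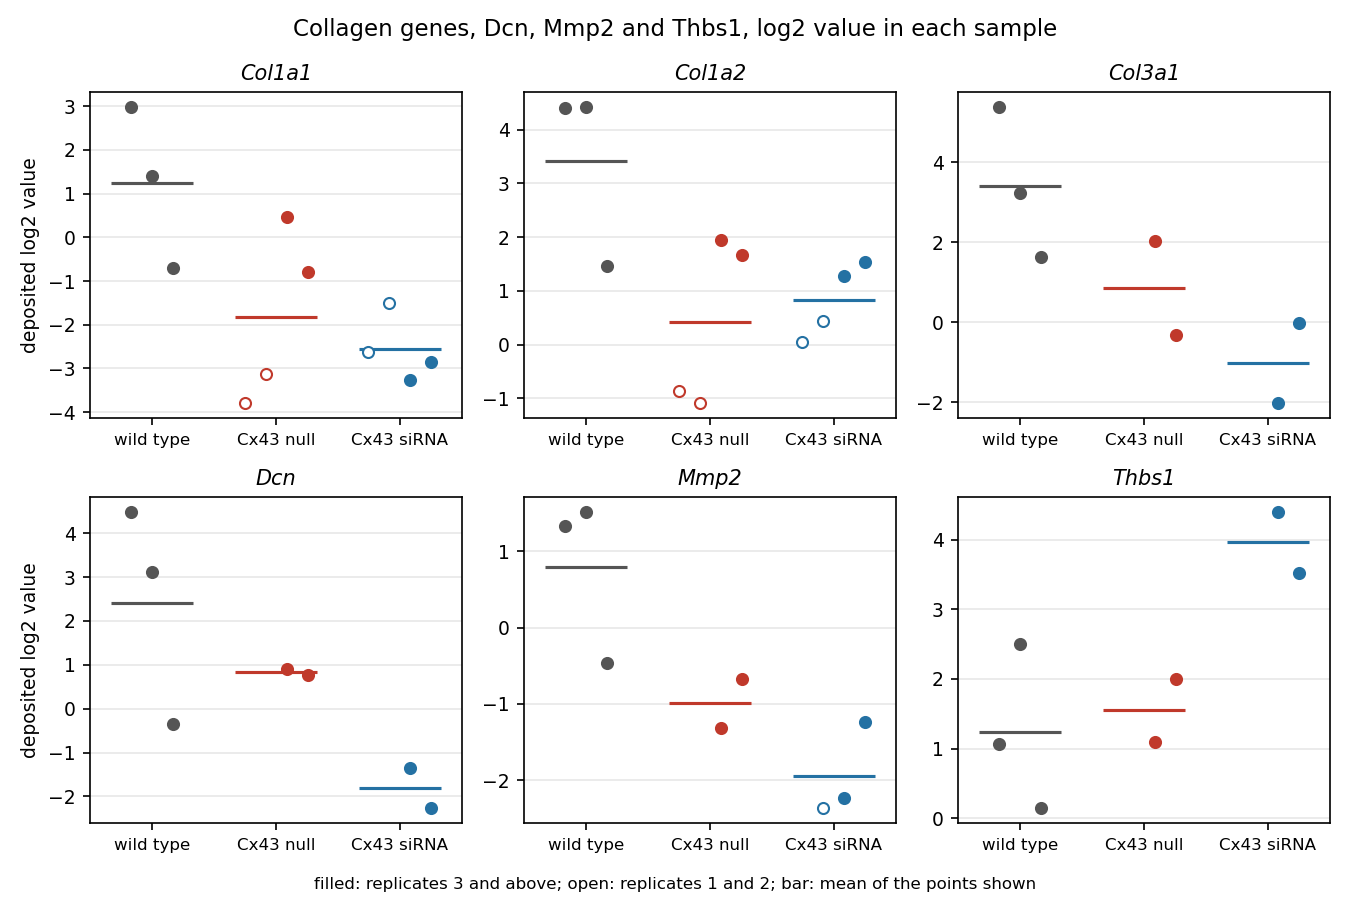
Log2 value (vertical axis) of 3 fibrillar collagen genes, Dcn, Mmp2 and Thbs1 in each sample of the 3 groups (horizontal axis); filled points are replicates 3 and above, open points replicates 1 and 2, bars the mean of the points. Col3a1, Dcn and Thbs1 have no open points because null and siRNA replicates 1 and 2 had no value; in replicates 3 and 4, siRNA samples are the lowest for Col1a1 and Dcn and the highest for Thbs1.

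The basement membrane genes passed in no comparison of the groups. Col4a1, a chain of the network-forming type IV collagen, read 5.43, 4.52 and 4.24 in wild type, 3.31, 3.18, 4.58 and 4.38 in null, while siRNA samples read 4.06, 4.39, 4.37 and 4.38. Its change was -0.56 ± 0.42 in null (SE; limma adjusted p = 0.579) and -0.13 ± 0.42 in siRNA (0.894). Col4a2, which lies head to head with Col4a1 on chromosome 8 with listed starts 21 bases apart, changed by -1.08 ± 0.56 in null (0.384) and -0.84 ± 0.56 in siRNA (0.406). The laminin chains Lamc1 and Lama2 changed by -0.65 and -1.10 in null and by -0.09 and -0.59 in siRNA. Second probes differed in sign for Col4a1 in siRNA (0.28), for Col4a2 in siRNA (0.34) and for Lama2 in both groups (0.78 in null, 0.32 in siRNA), and none of these was called. Lamb1, the laminin beta 1 chain, was dim (signals 15 to 52) and read -1.95, -2.94 and -3.07 in wild type, -3.09, -2.02 and -1.83 in null replicates 2 to 4, and -2.93 and -3.21 in siRNA replicates 3 and 4. Nidogen (Nid1), which links laminin to collagen IV, had values only in replicates 1 and 2; these were -0.10 and -0.42 for null and 0.67 and 0.89 for siRNA. The beaded-filament collagens Col6a1 and Col6a2 and the network collagen Col8a1 changed by at most 0.66 in size against wild type and were not called. A second Col8a1 probe, also measured in all 11 samples, gave 1.46 in null and 2.38 in siRNA (limma adjusted p = 0.507 and 0.152), against 0.66 and -0.41 for the first, so the probes disagreed in sign in siRNA. By the first probe Col8a1 was 2.09 ± 0.57 higher in null than in siRNA in replicates 3 and above (limma adjusted p = 0.0319), against 0.05 in replicates 1 and 2.

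Tenascin C (Tnc), an anti-adhesive protein made by astrocytes, was lower in null than in siRNA samples. It read 3.99, 4.54 and 5.63 in wild type, 2.42, 2.01, 3.05 and 3.93 in null, while siRNA samples read 3.90, 3.93, 4.42 and 5.08. All null samples lay below these wild-type samples, and they overlapped siRNA only through null replicate 4. The moved wild-type replicates 1 and 2 read 2.56 and 3.69, with which wild type and null overlapped. The difference between null and siRNA was -1.48 ± 0.37 (SE; 2.79-fold, limma adjusted p = 0.0371). It was lost when any null or siRNA sample was left out (up to 0.112) and with array pairs as a random block (0.202). Against wild type Tnc changed by -1.26 ± 0.44 in null (limma adjusted p = 0.193) and 0.22 ± 0.44 in siRNA (0.819).

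Fibronectin (Fn1), the adhesive glycoprotein that cells assemble into fibrils, read 5.89, 6.02 and 6.74 in wild type, 5.19, 5.65, 4.53 and 4.22 in null, while siRNA samples read 5.38, 6.09, 5.57 and 6.88. All null samples lay below these wild-type samples, but the difference did not pass (-1.37 ± 0.48 SE, limma adjusted p = 0.193). The moved wild-type replicates 1 and 2 read 4.43 and 5.65, with which wild type and null overlapped. Null against siRNA was -1.08 ± 0.40 (0.125) and was called only in replicates 3 and above (-1.85 ± 0.56, 0.0477). Thrombospondin 1 (Thbs1), a matricellular protein that astrocytes release to promote synapses, had values only in replicates 3 and above, at 1.07, 2.50 and 0.14 in wild type, 1.10 and 2.01 in null, while siRNA samples read 4.40 and 3.53. Both siRNA samples lay above all others; the change was 2.75 ± 0.64 against wild type (SE; 6.71-fold, limma adjusted p = 0.0137), and null minus siRNA was -2.41 ± 0.70 (0.0402). Thbs2 changed by 0.26 in null and 0.35 in siRNA and did not pass.

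Sparc, a collagen-binding matricellular protein, had a value in wild-type replicate 3 (-0.70) and null replicate 3 (-0.68) alone, at signals of 49 and 55. Postn (signals 21 to 101) read -0.90, -0.72 and -3.64 in wild type and between -3.30 and -1.62 in the 6 null and siRNA samples with a value. The chondroitin sulphate proteoglycans of neural matrix were measured in few samples. Versican (Vcan) read -2.84 in wild-type replicate 6, -2.08 and -1.46 in null replicates 1 and 2, and -2.06 and -1.47 in siRNA replicates 1 and 2. Another Vcan probe read -2.13 and -2.61 in wild-type replicates 3 and 6, -1.81 and -1.38 in null replicates 3 and 4, and -2.73 in siRNA replicate 4. A further Vcan probe read -1.06 in wild-type replicate 3 and -0.74 and -0.92 in null replicates 3 and 4. Brevican (Bcan) had values in replicates 1 and 2 alone, which were -0.47 and -0.66 for null and -0.60 and -0.07 for siRNA. Neurocan (Ncan) read -0.58 in wild-type replicate 3, -2.05 and -1.73 in null and -1.19 and -0.58 in siRNA replicates 1 and 2. These proteoglycans were not tested against wild type.

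Among proteases and inhibitors, Timp3, a matrix-bound inhibitor of metalloproteinases, read 6.62, 6.11 and 4.89 in wild type, 6.03, 5.67, 6.55 and 5.41 in null, while siRNA samples read 4.34, 5.07, 4.50 and 4.97. All null samples lay above all siRNA samples, a difference of 1.19 ± 0.41 that did not pass (SE; limma adjusted p = 0.105). Mmp2 read 1.33, 1.52 and -0.47 in wild type, -1.31 and -0.67 in null replicates 3 and 4, and -2.37, -2.23 and -1.24 in siRNA replicates 2, 3 and 4. All siRNA and null values lay below these wild-type values and overlapped each other, while the moved wild-type replicate 2 read -2.37. In the fit of replicates 3 and above, the null change of Mmp2 against wild type was -1.76 ± 0.62 and did not pass (limma adjusted p = 0.12). Timp2, an inhibitor that also takes part in activating Mmp2, read 3.57, 4.40 and 4.61 in wild type, 5.08 and 5.98 in null and 3.20 and 3.98 in siRNA replicates 3 and 4. It was higher in null than in siRNA by 1.95 ± 0.50 in that fit (limma adjusted p = 0.0255). Mmp14, the membrane-bound activator of Mmp2, changed by 0.32 in null and -0.22 in siRNA and did not pass.

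Of the mural markers, the receptor Pdgfrb read 1.85, 0.72 and 1.47 in wild type, -0.84, -1.05, 1.24 and 0.53 in null, while siRNA samples read -2.30, -1.79, 0.55 and 1.10. Replicates 1 and 2 of both groups were the lowest samples, and neither group passed against wild type (-0.23 ± 0.45 in null, limma adjusted p = 0.869; -0.81 ± 0.45 in siRNA, 0.315). Smooth muscle actin (Acta2), a contractile protein, read 6.60 and 7.97 in wild type, 6.83, 8.14, 6.44 and 7.02 in null, while siRNA samples read 6.95 and 6.51; it had no value in wild-type replicate 6 and siRNA replicates 2 and 4. Its signal reached 65138 scanner units, where the highest signal in any of the 14 columns was 65473, and whether its values were capped was not tested. Transgelin (Tagln), an actin-binding protein of smooth muscle, read -0.37, -0.02 and -2.17 in wild type, -0.13 and -0.43 in null replicates 3 and 4, and -2.07, -1.83, -1.80 and -0.59 in siRNA samples, with the groups overlapping.

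The members also varied with the replicate number. In replicates 1 and 2 against replicates 3 and 4, which null and siRNA samples alone could show, 11 of 26 members were lower and 0 higher (12 members, and 53.6% of all probes, at an unadjusted limma p under 0.05), where 40.4% of all probes were lower and 6.13% higher; the members' share is near that of the array. The median change was -1.02 for the members, where it was -0.76 for all probes. Ogn changed by -3.52 ± 0.32 (SE; limma adjusted p = 8.62e-06), Col11a1 by -2.96 ± 0.37 (7.05e-05), Thbs2 by -2.40 ± 0.49 (0.002) and Pdgfrb by -2.35 ± 0.38 (0.000415). The second Col11a1 probe gave 0.90 and was not called (limma adjusted p = 0.187), so the Col11a1 probes disagreed here too. The mean log2 value over the 25 members measured everywhere was 3.77, 3.02 and 2.82 in wild type, 1.36, 1.32, 2.98 and 2.62 in null, while siRNA samples read 1.30, 1.67, 2.25 and 2.51. Col3a1, Dcn, Bgn, Thbs1 and Timp2 had values in all 7 samples of replicates 3 and above and in none of replicates 1 and 2, while Nid1 and Bcan showed the opposite. Why values are missing is not known.

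The difference between null and siRNA itself depended on the replicate numbers for 11 of 25 members (limma interaction over 8 samples with 3 residual degrees of freedom), where 21.2% of 14728 probes passed this test. For Col1a1, null minus siRNA was 2.89 in replicates 3 and 4 and -1.40 in replicates 1 and 2 (limma adjusted p = 0.0103 for the interaction). For Lox it was negative in both, at -1.15 and -3.96. Col1a1 signals in null replicates 1 and 2 (48 and 23 scanner units) and siRNA replicate 3 (30) were near the floor of their columns. So were the Lox signals in null replicates 1 and 2, and the sizes of these Col1a1 and Lox differences are not known. Fbln5, at 3.17 and 2.85, and Ogn, at 1.15 and 1.59, did not pass this test (limma adjusted p = 0.605 and 0.417).

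**Figure D4:**
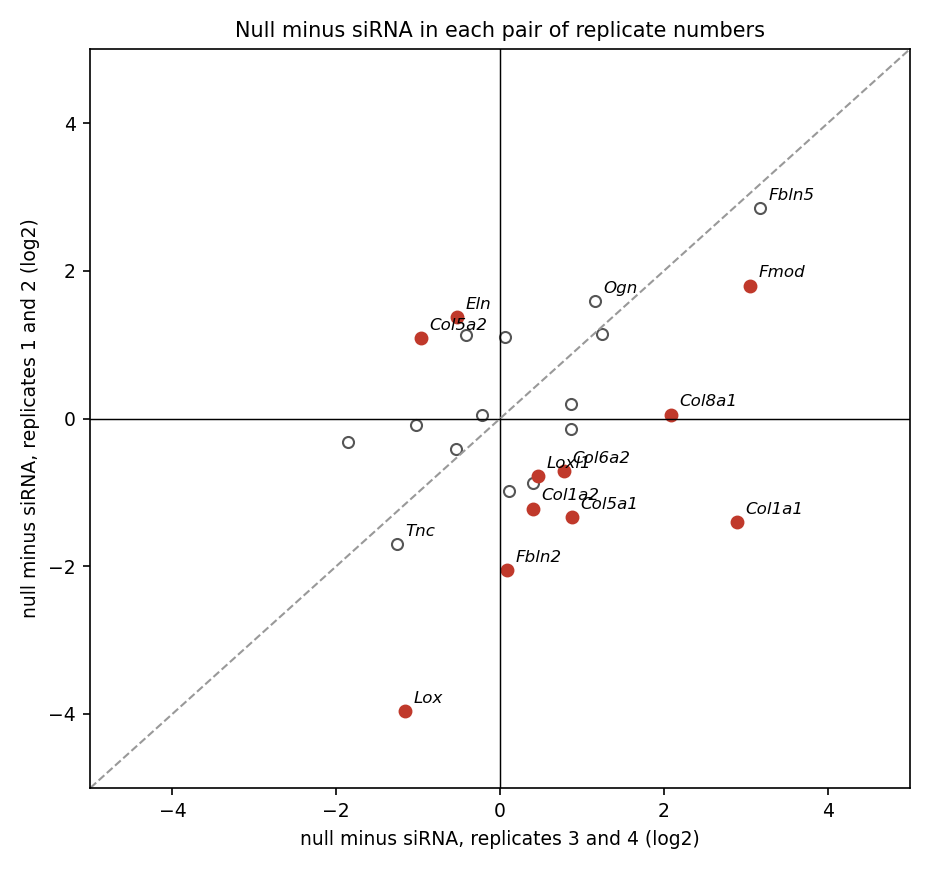
Null minus siRNA (log2) for 25 members in replicates 3 and 4 (horizontal axis) and in replicates 1 and 2 (vertical axis); red points passed the interaction test and the dashed line marks equal differences. Fbln5 (3.17 and 2.85) lies near the line, Col1a1 (2.89 and -1.40) far from it. Both Col1a1 differences rest in part on signals near the floor.

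Other matrix genes, from lists that hold no member, gave calls in each comparison. Of 11 tested other collagens, Col11a2 alone was called in siRNA against wild type (2.46 ± 0.39 SE, limma adjusted p = 0.00508), a share of 9.09% where 5.4% of all probes rose. Of 33 other glycoproteins and proteoglycans, 3 fell in siRNA (9.09%, where 2.12% of all probes fell) and 0 rose: Efemp1, a fibulin relative of elastic tissue (-2.64 ± 0.47, 0.00918), Prelp, a leucine-rich proteoglycan (-2.49 ± 0.57, 0.0252) and Mfap5, a microfibril protein (-2.27 ± 0.55, 0.0301). All 3 were among the 5 that were higher in null than in siRNA (15.2%, where 3.81% of all probes were higher), with Fbln7 and Ccn2. In replicates 1 and 2, 17 of the 33 were lower (51.5%, where 40.4% of all probes were lower). Of 18 collagen-processing enzymes, 2 rose in siRNA (11.1%, where 5.4% of all probes rose), the hydroxylase subunit P4hb (3.51 ± 0.64, 0.00939) and the procollagen proteinase Bmp1 (2.28 ± 0.54, 0.0289). Cathepsin B (Ctsb) alone fell in siRNA among 17 proteases and inhibitors (-1.83 ± 0.36, 0.0124), a share of 5.88% where 2.12% of all probes fell. Timp1 alone of these was lower in null than in siRNA (-3.26 ± 0.88, 0.0493), where 2.6% of all probes were lower. In null against wild type the receptor Sdc2 was the sole call among all of these lists (-2.63 ± 0.47, limma adjusted p = 0.0488), where 0.0859% of all probes fell. In that comparison no probe was called without the replicate term, with array pairs as a random block or with the moved wild-type columns. The Sdc2 call was therefore lost there, and all calls given for these lists are from the main fit alone.

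Microglial markers were lower in the siRNA group. Fewer markers of each other cell type were called. Astrocytes had nearly as many tested markers (11, against 12 for microglia), of which 1 fell and 1 rose in siRNA. The other types had fewer tested markers still, and no test compared the counts between cell types. Of 12 tested microglial markers, 6 fell in siRNA against wild type and 0 rose (median -1.93, where 2.12% of all probes fell); their mean level over the 11 measured everywhere ran from 1.90 to 2.61 in siRNA, 3.43 to 3.97 in wild type and 2.37 to 4.91 in null samples. Of 9 tested fibroblast markers that are no members, 1 fell in siRNA (Mfap5) and 0 rose, with a median of -0.75; the mean level over 7 ran from 0.31 to 1.22 in siRNA, 1.29 to 2.15 in wild type and 0.61 to 2.43 in null samples. Of 4 mural markers none was called by limma in the group comparisons (1 at an unadjusted p under 0.05 in each), and the mean level over Cnn1 and Mcam ran from 1.96 to 3.15 in siRNA, 2.29 to 2.67 in wild type and 1.72 to 2.76 in null samples. Endothelial (4 tested), oligodendrocyte (6) and neuronal (6) markers had 1, 1 and 2 that fell in siRNA (25%, 16.7% and 33.3%, where 2.12% of all probes fell) and 0 that rose. Between null and siRNA, 5 of 12 microglial, 2 of 9 fibroblast (Ptgds and Mfap5) and 2 of 11 astrocyte markers were higher in null. So were 1 of 4 endothelial and 1 of 6 oligodendrocyte markers, where 3.81% of all probes were higher, and 0 markers of any type were lower. Of 11 astrocyte markers, Aldoc fell in siRNA and Aldh1l1 rose, and the mean level over 9 of them ran from 1.34 to 3.19 in siRNA, 2.80 to 3.51 in wild type and 2.83 to 3.78 in null samples. Wild type had no replicates 1 and 2 here, so these ranges mix group with replicate number. In siRNA replicates 3 and 4 alone the means were 2.86 and 3.19 for astrocyte markers and 1.90 and 2.47 for microglial markers. They were 0.93 and 1.22 for fibroblast markers and 2.82 and 3.15 for mural markers. The part of these markers in the changes of the matrix genes was not tested, and fewer cells of a type cannot be told apart from less RNA per cell in such bulk samples.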

How the data were processed

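Samples were grouped by their titles: 3 of 6 wild-type, 4 null and 4 siRNA samples entered the main fit. The authors deposited log2 values, 1 for each probe in each sample; how the scanner signal was corrected is not stated. From the values, each is log2 of a whole-number signal over the median of its print block (48 blocks of 700 probes, all 14 columns, whole to within 0.05), so signal over background is unknown. Per the labels, 20 ug of total RNA was labelled with Cy3 or Cy5.

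The main fit was limma 3.58.1 (lmFit, eBayes, R 4.3.3) on these values with group, dye and replicates 1 and 2 against 3 and above, on probes with values in 2 or more wild-type samples and 3 or more samples of both other groups; p-values are two-sided. Fits of replicates 3 and above served members this filter left out. The scripts were tested on simulated data. The number of arrays limits the precision.

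Same-numbered samples deviated together from their group means (14243 probes, r 0.565 to 0.647 between null and siRNA, 0.305 to 0.387 between wild type and null, 0.121 to 0.161 between wild type and siRNA). Unlike numbers of null and siRNA within replicates 1 and 2, or within 3 and 4, gave nearly as much (r 0.399 to 0.598). The null and siRNA values therefore largely restate the difference between those replicates. Unlike numbers of wild type and the other groups within replicates 3 and 4 gave r from -0.196 to -0.0513. Same-numbered samples also carried the same dye, and these correlations used values not corrected for dye. A shared number therefore cannot be told apart from a shared dye here. Taking the numbers to pair samples was a choice and not a stated design. Values with a replicate block stand beside results they change. Alternatives were the terms, normalization, filter, probe choice and samples left out.

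The members, lists and model were chosen with earlier results of these data known. Members called in a group comparison and 20 genes listed by name are given per sample; of other genes, Gja1 and up to 2 calls per list and comparison, and further genes of short counts were named after their values were seen. Gene names and promoters are from the platform table and RefSeq (GRCm38.p6); protein sequences were not used here.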

Additional observations from a re-analysis of the deposited data

Results flagged for a closer look

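Col4a1 read 4.06 in siRNA replicate 1, apart from 4.39, 4.37 and 4.38 in the other siRNA samples. It was the 1 group with such a sample among 54 groups of samples checked, where chance gives about 1 in 20.

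The difference between null and siRNA changed with the replicate numbers for 11 of 25 members. Its value in replicates 1 and 2 less that in replicates 3 and 4 was -4.29 for Col1a1, -2.81 for Lox, -2.22 for Col5a1, -2.13 for Fbln2, -2.04 for Col8a1, -1.62 for Col1a2, -1.5 for Col6a2, -1.26 for Fmod and -1.24 for Loxl1, and 2.05 for Col5a2 and 1.89 for Eln (log2, limma interaction, adjusted p 0.0103 to 0.0457). Of all probes, 21.2% passed this test. The values for Col1a1, Lox and Fbln2 rest in part on signals near the floor. Consecutive samples may share an array, so the spread it uses may be technical.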

How the results depend on the processing

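Fbln5 kept its siRNA calls under every setting run except the fit of all 14 samples as deposited (-1.27 against wild type, limma adjusted p = 0.583). Against the 2 members called by limma in null against wild type (59 probes), 0 members and 0 probes were called without the replicate term, with array pairs as a random block, with all 14 samples, and with wild-type replicates 1 and 2 moved and added (a choice made after seeing the data), with or without pairs; at an unadjusted p under 0.05 these gave 818, 1423, 1058, 2540 and 1101 probes in turn. The replicate block gave 180 probes, replicates 3 and above 877, no dye term 145, and an unadjusted p under 0.05 2545 probes and 7 members. In siRNA against wild type (2 members, 1226 probes) these settings gave 1 member and 39 probes without the replicate term, 1 and 202 with array pairs, 0 and 43 with all 14 samples, 1 and 790 with the moved columns, 1 and 104 with moved columns and pairs, 5 and 3849 unadjusted, 4 members with the replicate block and 8 in replicates 3 and above. Between null and siRNA (5 members, 1046 probes) they gave 1 and 73, 2 and 120, 0 and 23, 608 probes with the moved columns, 1 and 60 with pairs too, 9 and 4029 unadjusted, and 1893 probes in replicates 3 and above. Of the member calls, the replicate block changed none other than those given for Lox, Col1a1 and Col1a2. For the replicate difference (7590 probes, 11 members), array pairs gave 4979 and pairs with moved columns 4021 probes.

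Leaving out 1 sample gave 0 to 2 members and 1 to 133 probes in null against wild type, 1 to 4 and 231 to 1191 in siRNA against wild type, 2 to 5 and 311 to 1437 between null and siRNA, and 7 to 12 members for the replicate difference. The causes were not tested. Signal over background is unknown, and dim members (Sparc, Lamb1, Lum, Postn, Vcan, Ncan), members without values in replicates 1 and 2, and changes that rest on signals within 2 times the 1st percentile of their column (Lox in null replicates 1 and 2, Col1a1 in these and siRNA replicate 3, Fbln2 in null replicate 2) bear the weakest statements.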
